A study of Homo sapiens with 12 samples.

Results

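Verteporfin (VP) was compared with DMSO in AGS cells on 6 of the 12 arrays of the series, 3 of VP-treated and 3 of DMSO-treated cells. The arrays were chosen by the cell line that the sample labels give. AGS is an established line from a human gastric adenocarcinoma, VP is a benzoporphyrin derivative, and DMSO is its solvent and the control. Both groups were grown in RPMI1640 medium. The labels give 36 h of treatment with either agent, the methods give a longer time, and the dose used for the arrays is not given in the sources used here. The other 6 arrays carry the label MKN45, a second gastric cancer line, with the same agents, and enter only where a difference between lines was tested. Whether each array had a culture of its own is not stated, and the spread that the p-values rest on may be technical. The study asked which genes VP changes in gastric cancer cells.

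VP is known as a photosensitizer, which makes singlet oxygen under red light, and, without light, as a compound that disturbs the binding of YAP1 to the TEAD transcription factors, the output of the Hippo pathway. A cell under stress slows general protein synthesis while ATF4, a transcription factor, raises genes of amino acid supply. A cell with unfolded protein in the cytosol raises heat shock chaperones through another factor, HSF1. Gastric epithelium secretes trefoil peptides, which guard the mucous layer, and proteins that carry cobalamin.

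Each array read 47323 probes on an Illumina bead chip. The authors deposited 2 tables: the signals, which are the brightness of each probe on a linear scale, and a value table of log2 levels. The signals were background corrected, quantile normalized and put on the log2 scale. One probe stood for each of 9696 genes tested, and a gene was called where the limma test gave a Benjamini-Hochberg adjusted p under 0.05. All levels and changes below are on the log2 scale, a change is the mean of the VP arrays minus that of the DMSO arrays, and SE is its standard error. The value table carries the same sample names, but its AGS VP arrays ranked 16021 probes more like the DMSO arrays of the signals (Spearman 0.925 to 0.938) than like the VP arrays of the signals (0.854 to 0.869). The tables are therefore given apart, the signals first.

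In the signals, VP arrays correlated with each other at 0.984 to 0.992, DMSO arrays at 0.985 to 0.987, and VP with DMSO arrays at 0.918 to 0.925. Median signals were 117 to 129 on VP and 112 to 123 on DMSO arrays. Of 10 epithelial markers, 9 were above background on all 6 AGS arrays and KRT7 on none. Endothelial markers were above background on none of the arrays, as were PTPRC and CD3E of leukocytes, while LYZ, CD68 and FCGR3A were above it on all 6. Of 9 fibroblast markers, PDGFRA alone was above background on all 6. All 4 genes listed as higher in MKN45 were lower on the AGS DMSO arrays than on the DMSO arrays labelled MKN45 in both tables, by less in the signals. CEACAM5, an adhesion protein, averaged 7.0 in AGS and 8.19 on the arrays labelled MKN45 in the signals, against 6.58 in AGS, which is below background, and 11.1 in the value table. CDH1, E-cadherin, averaged 7.12 in AGS and 7.95 on the arrays labelled MKN45 in the signals, against 7.30 and 11.1 in the value table. CEACAM6 averaged 11.26 and 11.65 in the signals, against 9.97 and 13.2 in the value table, and MET, a growth factor receptor, 8.79 and 9.0, against 8.87 and 12.6. AGS DMSO arrays correlated with DMSO arrays labelled MKN45 at 0.965 to 0.972 in the signals and 0.905 to 0.908 in the value table. DMSO arrays labelled MKN45 in the signals ranked probes more like the value table's AGS DMSO arrays (0.921 to 0.932) than its MKN45 DMSO arrays (0.877 to 0.887). Which cells those arrays hold was not tested.

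In the signals, 2496 genes rose (25.7% of those tested) and 2785 fell (28.7%) with VP, 54.5% in all. The rises were the larger changes. A change of 1 or more was seen for 666 genes that rose and 429 that fell, one of 2 or more for 128 and 11, and one of 3 or more for 47, all of them rises. Of the genes that rose, 262 were above background on all VP arrays and on no DMSO array, and 69 genes that fell showed the reverse. The median SD of a gene was 0.13 between VP arrays and 0.14 between DMSO arrays. All VP arrays lay above all DMSO arrays for 2785 genes (28.7%) and below them for 3177 (32.8%). The split depended on the scaling: with arrays shifted to a common median rather than quantile normalized (a median shift), 3349 genes rose and 1525 fell, and the median change of all genes was 0.15 in place of -0.03. Directions named below held under both scalings unless said.

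**Figure D1:**
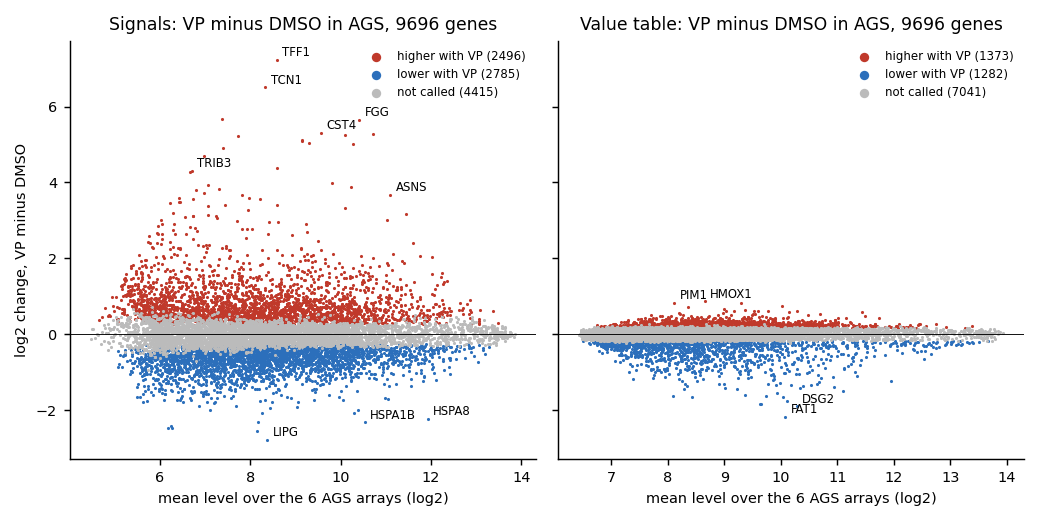
Change with VP (VP minus DMSO, log2) against the mean level over the 6 AGS arrays (log2), each point a gene, with the signals on the left and the value table on the right. The rises of the signals reach 7.23, at TFF1, and their falls -2.77, at LIPG, while the value table reaches 0.87 upward, at HMOX1, and -2.17 downward, at FAT1.

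TFF1, TCN1 and CBLIF, which encode secreted proteins, had the 3 largest rises as measured. TFF1, a trefoil peptide of gastric mucous cells, was at 12.08, 12.41 and 12.14 on the VP arrays, against 5.24, 4.70 and 4.99 on the DMSO arrays. TCN1, a cobalamin carrier, was at 11.63, 11.45 and 11.67 with VP, against 4.90, 5.05 and 5.27 with DMSO. CBLIF, gastric intrinsic factor, was at 10.16, 10.20 and 10.28 with VP, against 4.71, 4.42 and 4.51 with DMSO. All 3 were above background on every VP array and on no DMSO array, so that only a lower bound can be given, the difference from the lowest level above background on each array. The rise was at least 6.41 for TFF1, at least 5.78 for TCN1 and at least 4.41 for CBLIF, as measured 7.23, 6.51 and 5.67 (adjusted p = 6.5e-09, 4.6e-09 and 4.6e-09). CLDN18, a stomach claudin, rose by at least 2.37. Of the 12 gastric products tested, 8 rose and 1 fell, with a median change of 1.92 against -0.03 over all genes tested. This list and the next 3 were drawn up with the leading genes of these data known. The lists that follow them were chosen with earlier results of these data known. For all of these lists, the direction is no separate evidence.

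The 3 chains of fibrinogen, the clotting protein that liver cells release in the acute phase, rose together. FGG was at 13.33, 13.17 and 13.20 on the VP arrays, against 7.63, 7.54 and 7.60 on the DMSO arrays, a change of 5.64 (SE 0.10, adjusted p = 4.6e-09). FGB was at 13.40, 13.22 and 13.41 with VP, against 8.28, 8.02 and 7.92 with DMSO, and rose by 5.27 (SE 0.12). FGA rose by 5.01 (SE 0.14). All 6 arrays were above background for each chain, and the groups lay far apart. SERPINA3, an acute phase protease inhibitor, rose by at least 0.70, and 5 of 6 members of the list rose (median 3.40).

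Secreted cystatins, which inhibit cysteine proteases, were among the leading rises too. CST4 was at 12.12, 12.24 and 12.31 on the VP arrays, against 7.0, 7.0 and 6.75 on the DMSO arrays, and rose by 5.31 (SE 0.11) or 39.6-fold. CST2 rose by at least 3.53 and CST5 by at least 2.39, and their DMSO arrays were not above background. The secreted cystatins are near copies of each other, and a probe may read more than 1 of them. Of 6 cystatins tested, 4 rose and 1 fell (median 1.90).

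Enzymes that act on steroids and drugs went both ways. SULT2A1, a steroid sulfotransferase, was at 11.79, 11.80 and 11.86 on the VP arrays, against 6.79, 6.96 and 6.57 on the DMSO arrays, and rose by 5.04 (SE 0.12). HSD3B1, which makes progesterone and androgen precursors, was at 10.51, 10.34 and 10.18 with VP, against 4.79, 4.81 and 5.73 with DMSO, where no array was above background, and rose by at least 4.54. UGT1A1, which conjugates bilirubin, rose by 2.53 (SE 0.18). ALDH3A1, an aldehyde dehydrogenase, was at 9.19, 9.40 and 9.19 with VP, against 11.43, 11.29 and 11.26 with DMSO, and fell by 2.07 (SE 0.11). Of 22 such enzymes tested, 11 rose and 6 fell (50% and 27.3%, against 25.7% and 28.7% of all genes, median 0.47). Among 10 genes that the aryl hydrocarbon receptor drives, 8 rose and 2 fell (median 0.74), and CYP1A1, its classical target, rose by 2.10 (SE 0.15) while ALDH3A1, often listed with it, was among the falls. CYP1A2 rose by at least 0.23.

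The other leading rises had no role in common. SPINK1, a trypsin inhibitor, rose by 5.08 (SE 0.15). CDC42EP5, an effector of the small GTPase CDC42, rose by 5.26 (SE 0.12) and PTPRH, a receptor phosphatase, by 4.38 (SE 0.11). DEPTOR, which binds and inhibits mTOR, was at 9.79, 9.82 and 9.94 on the VP arrays, against 5.11, 4.95 and 4.73 on the DMSO arrays, which were not above background, and rose by at least 4.05. HKDC1, a hexokinase, was at 11.63, 11.70 and 11.84 with VP, against 6.95, 6.10 and 6.73 with DMSO, and rose by 5.13 (SE 0.20). The DMSO arrays of HKDC1 were more spread than its VP arrays, and no array of either group came near the other.

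**Figure D2:**
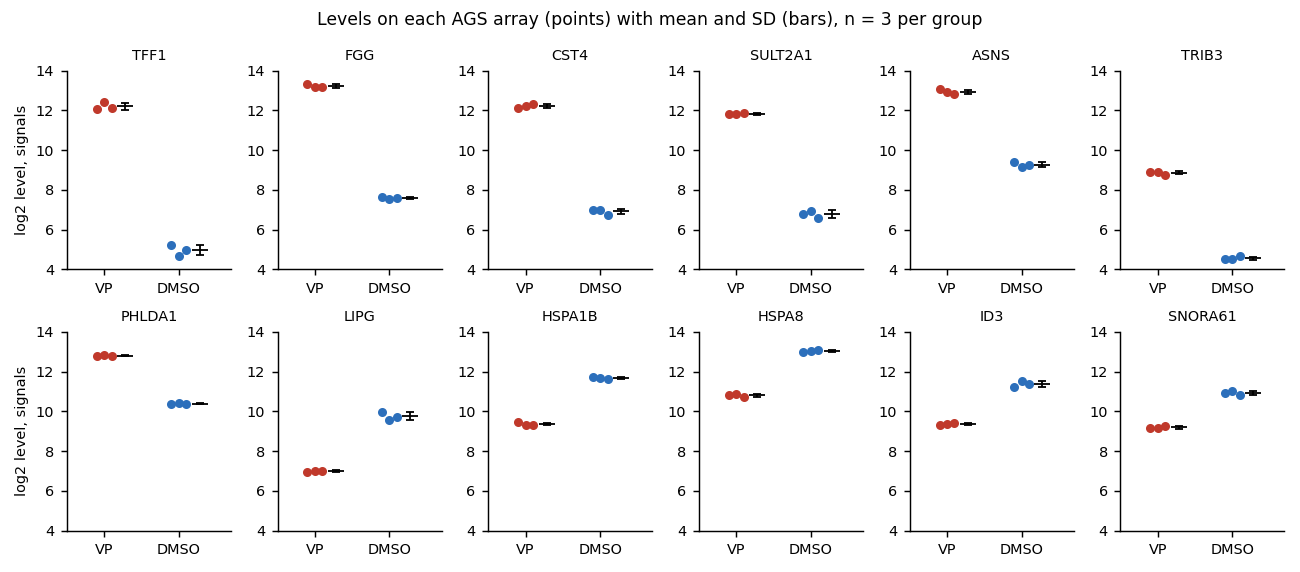
Level (log2, signals) of 12 genes on each AGS array, with the mean and SD of each group as bars (n = 3). The 7 genes up to PHLDA1 lie higher on all VP arrays and the 5 from LIPG on lie lower, with no overlap of the groups.

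ATF4 and its partner CHOP, encoded by DDIT3, switch on genes of amino acid synthesis and uptake. All 29 genes tested of this list rose, of 34 listed, with changes of 0.59 to 4.31 and a median of 1.60. The list counts ATF4 itself, which had the smallest change. The median under a median shift was 1.65 and it lay between 1.53 and 1.64 when any 1 array was left out. TRIB3, a pseudokinase that feeds back on the pathway, was at 8.92, 8.91 and 8.77 on the VP arrays, against 4.51, 4.51 and 4.65 on the DMSO arrays, and rose by at least 3.06. ASNS, asparagine synthetase, was at 13.05, 12.92 and 12.84 with VP, against 9.41, 9.14 and 9.25 with DMSO, a rise of 3.67 (SE 0.11, adjusted p = 4.8e-08) or 12.7-fold. SLC7A11, the cystine transporter, rose by at least 3.22, and CTH, which makes cysteine, by 3.59 (SE 0.16). CHAC1, which breaks down glutathione, rose by 2.96 (SE 0.13). Of the factors themselves, DDIT3 was at 9.61, 9.60 and 9.73 with VP, against 7.79, 7.92 and 7.73 with DMSO, and rose by 1.83, and ATF4 rose by 0.59 (SE 0.10).

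The CEBP-ATF element, to which ATF4 binds with a C/EBP partner, was searched as TGATGNAA on both strands in RefSeq promoters (GRCh38.p14, 250 bases before to 50 after the start of the gene), which were at hand for 7922 of the 9696 genes. It was found in 7 of 25 promoters of the ATF4 and CHOP list (28%), in 6 of the 100 largest rises, in none of the 100 largest falls, and in 132 of all 7922 (1.67%). The ASNS and CHAC1 promoters are shown as members that hold a match, in capitals, which starts at -68 from the start of ASNS (chr7:97872359-97872658, minus strand) and at -209 from that of CHAC1 (chr15:40953221-40953520, plus strand). A match is a description of letters and not a binding site.
ASNS: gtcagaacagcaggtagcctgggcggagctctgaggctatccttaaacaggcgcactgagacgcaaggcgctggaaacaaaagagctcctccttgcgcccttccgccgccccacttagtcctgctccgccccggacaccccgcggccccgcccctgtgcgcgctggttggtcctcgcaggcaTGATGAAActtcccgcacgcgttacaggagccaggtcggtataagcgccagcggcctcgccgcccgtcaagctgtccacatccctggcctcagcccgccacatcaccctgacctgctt
CHAC1: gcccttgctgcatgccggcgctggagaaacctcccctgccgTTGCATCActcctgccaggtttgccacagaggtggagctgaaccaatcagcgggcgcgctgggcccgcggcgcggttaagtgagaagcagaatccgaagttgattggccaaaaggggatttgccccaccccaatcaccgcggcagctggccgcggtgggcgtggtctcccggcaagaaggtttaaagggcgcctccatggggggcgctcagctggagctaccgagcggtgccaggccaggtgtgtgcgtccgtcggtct

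EGFR, a growth factor receptor, and the ERK kinases beneath it were followed through 2 lists. EGFR was at 9.94, 10.07 and 9.85 on the VP arrays, against 7.88, 7.63 and 8.12 on the DMSO arrays, and rose by 2.08 (SE 0.14). HBEGF, one of its ligands, was at 9.65, 9.84 and 9.80 with VP, against 7.75, 7.62 and 7.62 with DMSO, and rose by 2.10 (SE 0.10). ERRFI1, an inhibitor of the receptor, rose by 2.03 (SE 0.12). Of 10 receptors and ligands of the family, 6 rose and 1 fell (60% and 10%, against 25.7% and 28.7% of all genes). Of 31 ERK feedback and immediate early genes, 24 rose and the other 7 did not pass the test (median 1.06). PHLDA1 was at 12.77, 12.83 and 12.80 with VP, against 10.36, 10.41 and 10.39 with DMSO, and rose by 2.42 (SE 0.09), the largest change of that list. FOS, an immediate early factor, rose by 2.06 (SE 0.16), and DUSP4 and DUSP6, phosphatases that switch ERK off, by 1.98 (SE 0.13) and 1.79 (SE 0.11). CXCL8, a chemokine, was at 7.59, 7.91 and 8.45 with VP, against 5.08, 5.71 and 5.62 with DMSO, and rose by at least 2.18.

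Of 37 genes of glycolysis and the hypoxia response, 26 rose and 2 fell (70.3% and 5.41%, median 0.80). Over all genes tested, 25.7% rose and 28.7% fell. ADM, a peptide hormone raised by low oxygen, was at 9.39, 9.76 and 9.83 on the VP arrays, against 5.91, 5.96 and 6.12 on the DMSO arrays, and rose by 3.67 (SE 0.13). NDRG1 rose by 2.70 (SE 0.14), and ANKRD37 by 3.13 (SE 0.17), with 1 of 3 DMSO arrays above background. TXNIP, an inhibitor of glucose uptake, rose by 2.06 (SE 0.15). Of 35 interferon-stimulated genes, 17 rose and 3 fell (48.6% and 8.57%, median 0.21). IFI27 was at 11.72, 11.84 and 11.84 with VP, against 7.57, 8.29 and 7.58 with DMSO, and rose by 3.99 (SE 0.19), while ISG20 rose by 2.02 (SE 0.11), IRF7 by 1.88 (SE 0.21) and IFIT3 by at least 1.17. Among 37 autophagy and lysosome genes, 14 rose and 7 fell (37.8% and 18.9%). MAP1LC3B, a coat protein of autophagosomes, was at 1.97 (SE 0.11) and WIPI1 at 1.71 (SE 0.11).

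Falls were smaller than rises, and the genes that fell most had varied roles. LIPG, an endothelial-type lipase, was at 6.94, 7.03 and 7.0 on the VP arrays, against 9.97, 9.58 and 9.74 on the DMSO arrays, and fell by 2.77 (SE 0.12, adjusted p = 4.0e-07), the largest fall among the genes tested. PAGE4, a cancer/testis antigen, was at 6.65, 6.71 and 7.31 with VP, against 9.21, 9.56 and 9.50 with DMSO, and fell by 2.54 (SE 0.18). ID3, which blocks basic helix-loop-helix factors and is a target of BMP signals, was at 9.34, 9.38 and 9.40 with VP, against 11.24, 11.53 and 11.38 with DMSO, and fell by 2.01 (SE 0.11). The VP arrays of each of these lay below all of its DMSO arrays. For CDKN1C, an inhibitor of cyclin-dependent kinases, GRHL3, an epithelial transcription factor, and KIF26B, a kinesin, no VP array was above background, and the changes were -1.80 or lower, -1.77 or lower and -1.86 or lower. TAGLN, an actin-binding protein of smooth muscle, fell by 1.91 (SE 0.11), and TENM3, a teneurin of the cell surface, by 1.99 (SE 0.12). TMEM50B, UNC5CL, IGFL2 and ADI1 made up the rest of the leading falls, with changes of -2.30, -2.06, -1.95 and -1.90.

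Cytosolic chaperones fell as a list in the signals. Of 31 tested, 19 fell and 3 rose (61.3% and 9.68%, against 28.7% and 25.7% of all genes, median -0.51). HSPA8, the constitutive HSP70, was at 10.83, 10.89 and 10.72 on the VP arrays, against 13.01, 13.04 and 13.07 on the DMSO arrays, and fell by 2.23 (SE 0.10, adjusted p = 4.3e-07), so that the DMSO level was 4.68-fold the VP level. HSPA1B, a heat-induced HSP70, was at 9.45, 9.32 and 9.34 with VP, against 11.73, 11.68 and 11.65 with DMSO, and fell by 2.32 (SE 0.10), although its near-identical copy HSPA1A cannot be told apart from it by every probe. DNAJA1, a co-chaperone, was at 10.02, 10.06 and 10.34 with VP, against 11.86, 11.81 and 11.78 with DMSO, and fell by 1.67 (SE 0.11). In each case the 2 groups were apart by more than their own spread. HSPB8, a small heat shock protein that works with autophagy, rose by 2.29 (SE 0.13).

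The heat shock element, to which HSF1 binds, was searched as GAANNTTC or TTCNNGAA, which overlap where the repeats run on. It was found in 9 of 28 promoters of the chaperone list (32.1%), in 20 of the 100 largest rises, in 18 of the 100 largest falls and in 815 of all 7922 (10.3%). The HSPA1B promoter (chr6:31827488-31827787, plus strand) held 1 match, which starts at -105 from the start of the gene, and the HSPA8 promoter (chr11:123062087-123062386, minus strand) held 4 that overlap in pairs. Both are shown as the chaperones that fell most, with matches in capitals. For the other elements searched, the antioxidant element TGACNNNGC was in 13 of the 100 largest rises, 18 of the 100 largest falls and 15.4% of all promoters. GCGTG, the core that the aryl hydrocarbon receptor binds, was in 37 and 45 of them and in 51.5% of all, and GGAATG, the TEAD element, in 13 and 15 and in 10.5% of all. In the lists named for the factors, the antioxidant element was in 4 of 18 promoters of NRF2 antioxidant genes (22.2%). The TEAD element was in 8 of 15 promoters of YAP and TEAD targets (53.3%).
HSPA1B: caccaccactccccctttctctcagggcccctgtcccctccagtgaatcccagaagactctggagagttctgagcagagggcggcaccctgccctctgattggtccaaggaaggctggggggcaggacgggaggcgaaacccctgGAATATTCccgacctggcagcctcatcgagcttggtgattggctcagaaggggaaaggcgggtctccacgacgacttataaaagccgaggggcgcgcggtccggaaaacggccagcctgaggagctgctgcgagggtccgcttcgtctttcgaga
HSPA8: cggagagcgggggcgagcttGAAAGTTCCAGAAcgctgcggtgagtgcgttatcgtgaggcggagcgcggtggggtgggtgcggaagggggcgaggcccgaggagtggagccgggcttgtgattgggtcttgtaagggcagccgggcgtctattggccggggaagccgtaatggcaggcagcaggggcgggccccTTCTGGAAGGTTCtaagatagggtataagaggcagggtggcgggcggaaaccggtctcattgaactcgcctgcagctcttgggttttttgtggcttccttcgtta

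Lists of growth and protein turnover held more falls than rises in the signals, where 28.7% of all genes fell and 25.7% rose. Of 37 genes of DNA replication and nucleotide supply, 24 fell and 2 rose (median -0.60). TYMS, thymidylate synthase, was at 10.38, 10.39 and 10.54 on the VP arrays, against 11.60, 11.66 and 11.55 on the DMSO arrays, and fell by 1.17 (SE 0.10), and DUT, which removes dUTP, fell by 1.26 (SE 0.15). Of 43 genes of mitosis, 16 fell and 6 rose (median -0.21), with KIF20A, a mitotic kinesin, at -1.12 (SE 0.12) and FOXM1, a factor that drives mitotic genes, at -0.90 (SE 0.16). With a median shift, 10 of the mitosis genes fell and 8 rose (median -0.05). Of all 9696 genes, 1525 fell and 3349 rose with that shift (median 0.15). Of 41 ribosome biogenesis genes, 25 fell and 1 rose (median -0.55), among them PNO1 at -1.32 (SE 0.10) and PES1 at -1.14 (SE 0.15). Of 32 proteasome subunits, 18 fell and the other 14 did not pass the test (median -0.34). PSME3, a proteasome activator, fell by 1.74 (SE 0.14) and PSMA2 fell by 1.62 (SE 0.14), and with a median shift 10 subunits fell.

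Small nucleolar RNAs, which guide the modification of ribosomal RNA and sit in introns of host genes, showed the highest share of falls among the lists. Of 96 tested, 70 fell and 6 rose (72.9% and 6.25%, against 28.7% and 25.7% of all genes, median -0.77). SNORA61 was at 9.15, 9.15 and 9.29 on the VP arrays, against 10.92, 11.02 and 10.85 on the DMSO arrays, and fell by 1.74 (SE 0.10). SNORD56 fell by 1.78 (SE 0.11), with 1 of 3 VP arrays above background. Of 16 long noncoding host genes, 8 fell and 3 rose, and DANCR was at -1.65 (SE 0.11). A probe inside a host transcript may read the host as well as the small RNA.

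Sterol synthesis fell, and fatty acid synthesis was split. Of 19 genes of cholesterol synthesis and uptake, 11 fell and 1 rose (57.9% and 5.26%, against 28.7% and 25.7% of all genes, median -0.53). NSDHL was at -1.12 (SE 0.10), LSS at -1.07 (SE 0.09) and IDI1 at -1.07 (SE 0.12), all 3 enzymes of that path. FASN, fatty acid synthase, was at 9.17, 9.05 and 9.21 on the VP arrays, against 11.18, 10.78 and 10.46 on the DMSO arrays, and fell by 1.66 (SE 0.17). SCD, the desaturase that acts after it, was at 12.45, 12.28 and 12.18 with VP, against 10.99, 10.87 and 10.93 with DMSO, and rose by 1.38 (SE 0.11).

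**Figure D3:**
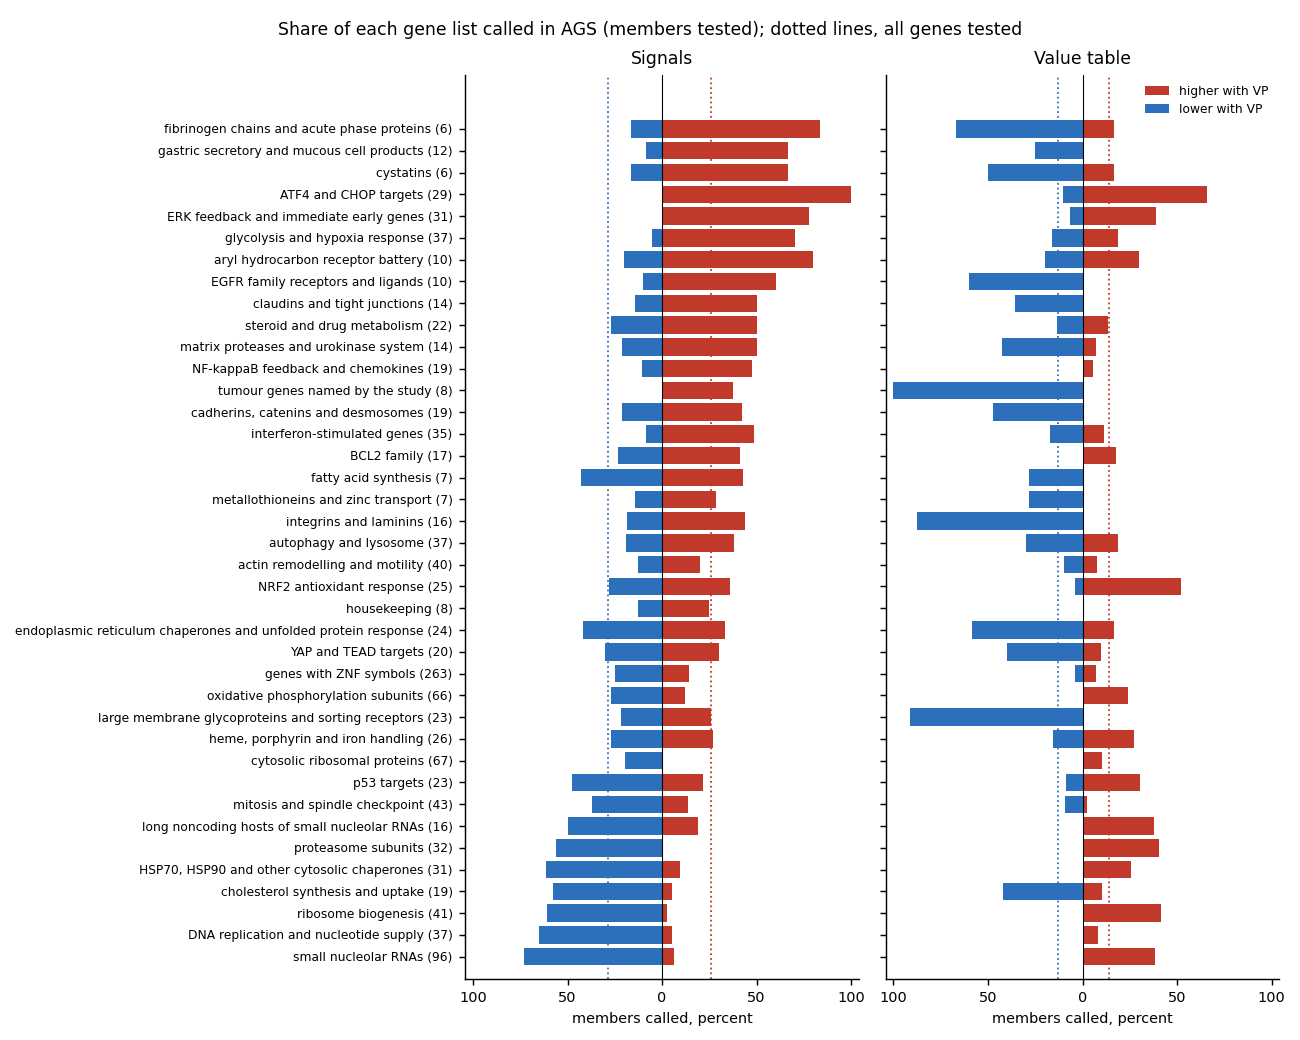
Share of the tested members of each list called higher (right) or lower (left) with VP, in percent, for the signals (left) and the value table (right), with the number tested in brackets and lists ordered by the median change in the signals. Dotted lines mark the shares over all genes tested, 25.7% higher and 28.7% lower in the signals and 14.2% and 13.2% in the value table.

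YAP1 itself was at 10.09, 9.94 and 10.19 on the VP arrays, against 10.17, 9.86 and 9.95 on the DMSO arrays, and the groups overlapped (change 0.08, SE 0.12, adjusted p = 0.61). Of 20 YAP and TEAD targets, 6 rose and 6 fell (30% each), near the shares over all genes tested (25.7% and 28.7%). Their median was -0.02, and 0.21 with a median shift, where 8 rose and 3 fell. The median of all genes was 0.15 with that shift. ANKRD1, a muscle-type ankyrin protein often used as a readout, was at 5.91, 6.07 and 5.82 with VP, against 7.87, 7.84 and 7.72 with DMSO, and fell by 1.88 (SE 0.11). VGLL1, a TEAD cofactor, was at -0.73 or lower, and THBS1, a matrix glycoprotein, fell by 1.5 (SE 0.18), with 1 of 3 VP arrays above background. CCN2, a matricellular protein and textbook target, was at 9.86, 10.11 and 10.17 with VP, against 10.48, 10.36 and 10.37 with DMSO, and fell by 0.36 (SE 0.11, adjusted p = 0.024), which did not pass with a median shift (-0.18, adjusted p = 0.39), without VP replicate 1 (-0.27, adjusted p = 0.089) or without DMSO replicate 1 (-0.32, adjusted p = 0.070). PTPN14, a negative regulator of YAP1, rose by 1.02 (SE 0.10). These are changes in the signals. In the value table, CCN2 fell by 0.81 (limma adjusted p = 4.4e-09) and still passed with any 1 array left out. ANKRD1 went the other way there and rose by 0.41 (adjusted p = 5.2e-05). Of the 20 targets, 8 fell and 2 rose there (40% and 10%, against 13.2% and 14.2% of all genes).

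Other lists held changes both ways, where 25.7% of all genes rose and 28.7% fell. Of 16 integrins and laminins, which join cells to the basement membrane, 7 rose and 3 fell, with ITGA5 at 1.93 (SE 0.13), ITGA2 at 1.56 (SE 0.12) and LAMB3 at 1.19 (SE 0.11). Of 23 p53 targets, 11 fell and 5 rose, with TP53I3 at -1.51 (SE 0.09) and TP53INP1 at -1.44 (SE 0.13). With a median shift 8 fell and 7 rose, while 1525 of all 9696 genes fell and 3349 rose. Of 17 members of the BCL2 family, which set the threshold of cell death, 7 rose and 4 fell. These are 41.2% and 23.5%, against 25.7% and 28.7% of all genes. BNIP3L, a mitophagy receptor, rose by 1.46 (SE 0.13), and BID, a death agonist, fell by 1.22 (SE 0.14). Among claudins and tight junction genes, 7 of 14 rose and 2 fell, with CLDN2 at -1.68 (SE 0.20) and 2 of 3 VP arrays above background. The metallothioneins went opposite ways, MT1X falling by 1.11 (SE 0.12) and MT2A rising by 0.87 (SE 0.15), while SLC30A1, a zinc exporter, rose by 0.39 (SE 0.10). Of 8 housekeeping genes, PGK1 (0.60) and SDHA (0.31) rose and PPIA, read by a dim probe, fell, at -0.76 or lower. SDHA did not pass without VP replicate 1 (0.26, adjusted p = 0.13), VP replicate 2 (0.29, adjusted p = 0.12), DMSO replicate 1 (0.30, adjusted p = 0.086) or DMSO replicate 3 (0.24, adjusted p = 0.14).

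In the value table, 1373 genes rose (14.2%) and 1282 fell (13.2%) with VP, 27.4% in all. Here the falls were the larger changes: 66 genes fell by 1 or more, and the highest rise was 0.87. The genes that fell most were large membrane and basement membrane proteins. FAT1, a giant atypical cadherin, was at 9.01, 8.98 and 8.98 on the VP arrays, against 11.20, 11.09 and 11.18 on the DMSO arrays, and fell by 2.17 (SE 0.06, adjusted p = 2.2e-15), so that the DMSO level was 4.49-fold the VP level. DSG2, a desmosomal cadherin, was at 9.28, 9.29 and 9.43 with VP, against 11.26, 11.25 and 11.17 with DMSO, and fell by 1.90 (SE 0.06). LAMC1, a laminin chain, was at 8.63, 8.80 and 8.73 with VP, against 10.63, 10.53 and 10.49 with DMSO, and fell by 1.83 (SE 0.07). All 3 drops were far beyond the spread within a group. Changes of -1.83 for GLG1, a Golgi glycoprotein, -1.75 for SLC12A2, a chloride cotransporter, -1.64 for IGF2R, the lysosomal sorting receptor, -1.64 for CDH17, an intestinal cadherin, and -1.62 for CPD, a carboxypeptidase, followed. Of 24 genes of endoplasmic reticulum chaperones and the unfolded protein response, 14 fell and 4 rose, against 10 and 8 in the signals. HSP90B1, the HSP90 of the endoplasmic reticulum, fell by 1.22 (SE 0.06) and was named after its values were seen. Of 23 large membrane glycoproteins and sorting receptors, 21 fell (median -0.92), and of 16 integrins and laminins, 14 fell (median -0.97). The glycoprotein list and the integrin and laminin list had 5 and 3 falls in the signals.

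The rises of the value table were led by stress genes and small RNAs. PIM1, a survival kinase, was at 8.61, 8.43 and 8.55 on the VP arrays, against 7.58, 7.83 and 7.69 on the DMSO arrays, and rose by 0.83 (SE 0.07). GDF15, a stress cytokine, was at 9.68, 9.71 and 9.71 with VP, against 8.91, 8.92 and 8.84 with DMSO, and rose by 0.81 (SE 0.06). Both genes rose in the signals too, PIM1 by 2.12 (SE 0.12) and GDF15 by 0.61 (SE 0.10). RNVU1-7 and RNVU1-18, variants of the spliceosomal U1 RNA, changed by 0.75 and 0.62 there and did not pass the test in the signals (-0.05 and -0.10), and being near copies they may share a probe's signal. SNORA26 rose by 0.72, CDK2AP2, a regulator of CDK2, by 0.66 and RNY1, a Y RNA, by 0.64. In the signals, SNORA26 was at -1.10 or lower and RNY1, above background on 2 of 3 DMSO arrays and no VP array, at -0.61 or lower. CDK2AP2 fell by 0.48 there (adjusted p = 0.038) and did not pass with a median shift (adjusted p = 0.14) or without VP replicate 1, VP replicate 3 or DMSO replicate 2 (adjusted p = 0.090, 0.12 and 0.11). Of the 29 genes of the ATF4 and CHOP list, 19 rose and 3 fell (median 0.25), with ASNS at 0.61 (SE 0.07). Of 96 small nucleolar RNAs, 37 rose (median 0.13). Some other lists that fell in the signals held rises and 0 falls there. The rises were 17 of 41 ribosome biogenesis genes, 13 of 32 proteasome subunits, 8 of 31 cytosolic chaperones and 3 of 37 DNA replication genes. Not all did so, as the 43 mitosis genes held 4 falls and 1 rise, and the 23 p53 targets 7 rises and 2 falls. Of 10 EGFR family receptors and ligands, 6 fell and 0 rose. The cholesterol list kept its direction, with 8 falls and 2 rises of 19, as did the ERK list, with 12 rises and 2 falls of 31. Over all genes there, 14.2% rose and 13.2% fell. TFF1 and CBLIF were above the background of that table, 6.71, on no AGS array. Of lists with more rises than falls in the signals, the gastric products had 0 rises and 3 falls of 12 there. The fibrinogen and acute phase list had 1 rise and 4 falls of 6, and the cystatins 1 rise and 3 falls of 6. Interferon-stimulated genes had 4 rises and 6 falls of 35, autophagy and lysosome genes 7 and 11 of 37, and glycolysis and hypoxia genes 7 and 6 of 37.

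HMOX1, heme oxygenase, which opens the heme ring, differed in direction between the tables. In the signals it was at 10.47, 10.54 and 10.20 on the VP arrays, against 11.69, 11.87 and 11.72 on the DMSO arrays, and fell by 1.36 (SE 0.12). In the value table it was at 9.16, 9.17 and 8.92 with VP, against 8.12, 8.23 and 8.30 with DMSO, and rose by 0.87 (SE 0.07, adjusted p = 1.1e-08). The groups did not overlap in either table. Of 25 NRF2 antioxidant genes, 9 rose and 7 fell in the signals (median 0.02), and 13 rose and 1 fell in the value table (median 0.18). Of 26 genes of heme and iron handling, 7 rose and 7 fell in the signals (26.9% each), near the shares over all genes (25.7% and 28.7%).

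**Figure D4:**
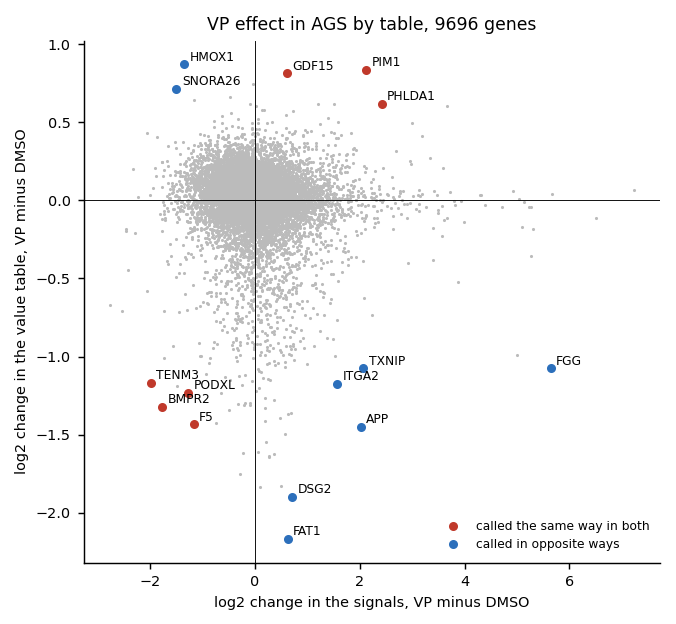
Change with VP (VP minus DMSO, log2) in the value table against that in the signals for 9696 genes in grey, with named genes called the same way in red and in opposite ways in blue. PIM1, PHLDA1 and GDF15 lie upper right, TENM3, BMPR2, PODXL and F5 lower left, and FAT1, DSG2, APP and FGG lower right.

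Few genes were called the same way in both tables. The base shares, over all genes tested, were 14.2% called higher and 13.2% called lower by the value table. Same-way shares of the signals' calls lay under these base shares, and opposite-way shares lay over them. Of the 2496 that rose in the signals, 314 (12.6%) rose in the value table and 398 (15.9%) fell there, which are 22.9% of the value table's rises and 31.0% of its falls. Of the 2785 that fell in the signals, 302 (10.8%) fell in the value table and 521 (18.7%) rose there, 23.6% of its falls and 37.9% of its rises. The genes that rose most in both by the smaller change were PIM1, SNORD3D (1.20 in the signals and 0.62 in the other table), PHLDA1 (2.42 and 0.62), SCARNA9 (1.51 and 0.62) and GDF15. Those that fell most in both were BMPR2, a BMP receptor, at -1.77 and -1.32, PODXL, a sialomucin, at -1.27 and -1.23, THBS1 at -1.5 and -1.19, coagulation factor F5 at -1.18 and -1.43, and TENM3 at -1.99 and -1.17. The largest disagreements of one kind were APP, the amyloid precursor (2.01 and -1.45), ITGA2 (1.56 and -1.18), TXNIP (2.06 and -1.07), FGG (5.64 and -1.07) and SLCO2A1, a prostaglandin transporter (1.53 and -1.0). The other kind was led by HMOX1, SNORA26, SDF2L1, an endoplasmic reticulum stress gene (-0.63 and 0.54), MTX1 (-0.78 and 0.51) and GPKOW (-0.63 and 0.49). GPKOW was at -0.38 in the signals with a median shift and did not pass (adjusted p = 0.051).

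The study named 8 genes of tumour biology from its own arrays, so the direction of that list is no separate evidence. It also followed FAT1 by western blot and qRT-PCR in VP-treated cells, and other genes by qRT-PCR, and presents FAT1 as suppressed by VP. It reported less FAT1 in VP-treated organoids too. Those assays are not part of the data used here. In the value table all 8 fell, with changes of -0.91 to -2.17 (median -1.58). In the signals 3 rose and the other 5 did not pass the test (median 0.27). FAT1 was at 12.93, 12.60 and 12.65 on the VP arrays of the signals, against 12.38, 11.91 and 12.02 on the DMSO arrays, and rose by 0.62 (SE 0.15, adjusted p = 0.0063). ITGAV, an integrin chain, was at 9.84, 9.60 and 9.69 with VP, against 9.12, 9.0 and 8.98 with DMSO, and rose by 0.68 (SE 0.11). ITGB1, its common partner, rose by 0.57 (SE 0.13). The VP arrays of these 3 lay above the DMSO arrays in the signals and below them in the value table, as VP arrays did for 18.2% of all genes there. ALCAM, IGF2R and CDH17 had changes of 0.21, 0.27 and 0.26 in the signals, MUC1 of -0.24 and ERBB3 of -0.29, and changes of -1.55 for ALCAM, -1.62 for MUC1, -0.91 for ERBB3, -1.49 for ITGB1 and -1.36 for ITGAV stood in the value table. Other settings moved calls of this list both ways: in the signals ALCAM and IGF2R rose with a median shift (0.40 and 0.45, limma adjusted p = 0.038 and 0.018), MUC1 fell without background correction (-0.23, adjusted p = 0.036) and with a trended, robust fit (-0.24, adjusted p = 0.036), and ERBB3 fell without DMSO replicate 1 (-0.39, adjusted p = 0.024). IGF2R also rose without VP replicate 3 (0.39, adjusted p = 0.037), and CDH17 rose without background correction, in the fit over all 12 arrays and in the robust fit (0.25, 0.26 and 0.26, adjusted p = 0.024, 0.034 and 0.021). Of the 8, MUC1 and ERBB3 had a lower mean with VP in both tables.

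**Figure D5:**
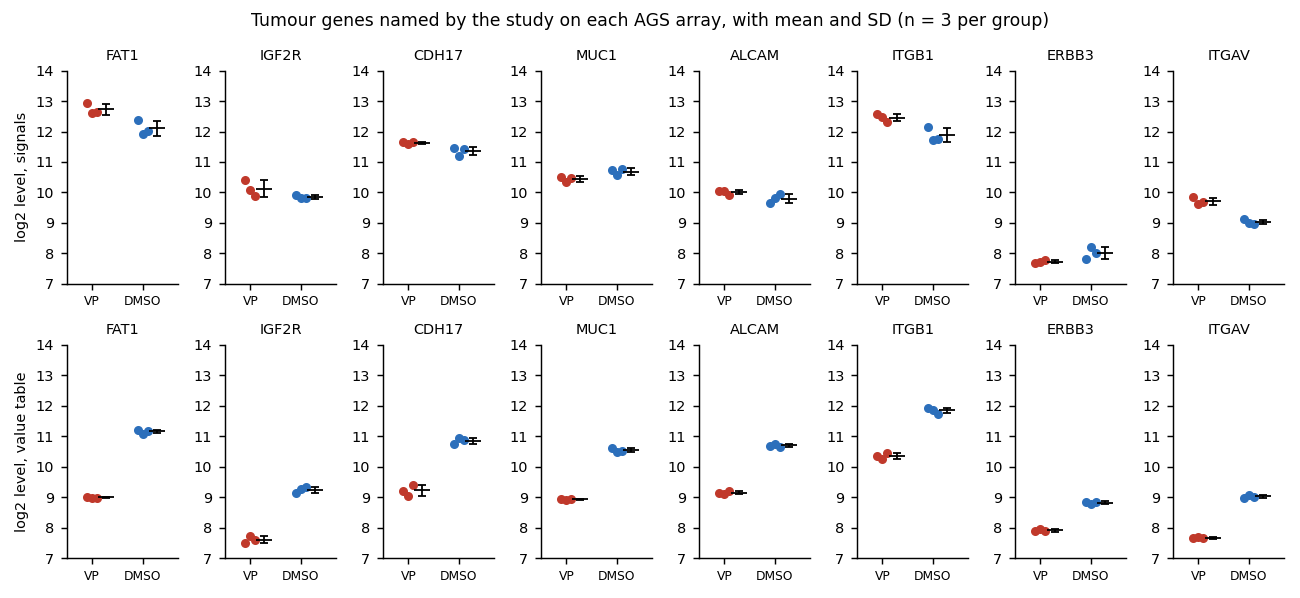
Level (log2) of the 8 genes named by the study on each AGS array, in the signals (top) and the value table (bottom), with the mean and SD of each group (n = 3). FAT1 lies between 12.60 and 12.93 with VP in the signals, above its DMSO arrays, and between 8.98 and 9.01 with VP in the value table, below them.

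Whether the effect in AGS differed from that on the arrays labelled MKN45 was tested as an interaction, which passed for 1087 genes of the signals (11.2%), 529 with a higher and 558 with a lower change in AGS. The 6 with the smallest p-values were FGG (5.64 in AGS and 3.23 on the arrays labelled MKN45), UNC5A, a netrin receptor (1.83 and 0.03), CST4 (5.31 and 7.56), MMP10, a stromelysin (3.80 and 1.40), IFI27 (3.99 and 0.90) and BST2, an interferon-induced tether of viruses (0.86 and -1.75). These are changes as measured, and DMSO levels not above background in AGS make those of UNC5A, MMP10 and BST2 at least 0.52, at least 2.89 and at least 0.56. On the arrays labelled MKN45, no DMSO array was above background for CST4 and no array at all for UNC5A, so the sizes of these differences rest in part on levels at background. The count depended on single arrays and on the scaling: it was 676 without AGS VP replicate 2, 693 without AGS VP replicate 1, 724 without VP replicate 1 of the arrays labelled MKN45, and 428 with a median shift.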

How the data were processed

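Illumina human bead chips were read for 12 samples, 3 for each line and agent, and the 6 AGS arrays are reported. The authors deposited linear signal intensity per probe, not normalized, with a detection p-value per probe and array; the submitters' processing notes name GenomeStudio, and its version is not given in the sources used here. They also deposited a table of log2 values, quantile normalized by the authors within each line, so levels of the lines are not on 1 scale there. Past row 21197 its values belong to the probe of the next row, which was tested by setting both tables in row order side by side; the names were moved by 1 row and 1 row of linear values was left out.

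Signals were corrected with normexp from the detection p-values (offset 16), quantile normalized over 12 arrays and log2 transformed with neqc in limma 3.58.1 (R 4.3.3). Probes with a detection p under 0.01 on all 3 arrays of a group were kept (16021 of 47323). The platform annotation gave 30113 probes 1 gene symbol, 8 several and 17202 none, and the brightest named probe stood for each of 9696 genes. For 243 genes the value table was read by another probe. Groups were compared with lmFit and eBayes on the AGS arrays, and the lines with an interaction over 12 arrays, with Benjamini-Hochberg adjustment at 0.05. The procedure was tested on simulated data. The number of arrays limits the precision: the median SE of a change was 0.12 for the signals and 0.06 for the value table.

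Where a probe was not above background in a group, a change is given as a bound, the other group's mean less the average, over arrays, of the probe's own value or the dimmest value above background, whichever was higher. Above background in the value table means over 6.71, set from the mode and spread of its low values.

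Genes were named by rule: the 15 largest rises and falls of the signals and the 8 of the value table among genes called with no overlap of groups, up to 4 members of each list plus any member needed to describe it, the genes the study named, YAP1, housekeeping genes, 5 for each way of agreement between the tables, and the 6 smallest interaction p-values. Members and lists were chosen with earlier results of these data known. Alternatives covered background correction, normalization, the filter, the fit, the replicate block, the tests of the methods and each array left out.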

Additional observations from a re-analysis of the deposited data

Results flagged for a closer look

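The effect of VP differed between AGS and the arrays labelled MKN45 for 60 of the 135 genes named in the signals (interaction in limma over 12 arrays, Benjamini-Hochberg adjusted p under 0.05), 28 with a higher and 32 with a lower change in AGS. The values are the AGS change minus that on the arrays labelled MKN45, on the log2 scale. For 20 of the 60, no array of at least 1 group was above background, in 16 of them a group of AGS and in 4 only a group of the arrays labelled MKN45. The sizes printed for these 20 are as measured and rest on levels at background. They are TRIB3, SLC7A11, TCN1, BST2, IFIT3, MMP10, SERPINA3, CXCL8, GSTA1, CYP1A2, UNC5A, HSD3B1, CST2, GRHL3, KIF26B and CDKN1C in AGS, and CST4, UGT1A1, PAGE4 and CLDN2 on the arrays labelled MKN45.

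Among genes of the interferon response, IFI27 differed by 3.08, BST2 by 2.62, IFIT3 by 1.99, ISG20 by 1.68 and IRF7 by 1.46. Among secreted proteins and their inhibitors, FGG differed by 2.42, MMP10 by 2.40, TCN1 by 1.98, SERPINA3 by 1.54, CXCL8 by 1.54, SPINK1 by 1.05 and FGB by 0.59. Of the ATF4 and CHOP targets, TRIB3 differed by 2.65, SLC7A11 by 1.57, CTH by 1.22 and ASNS by 1.14, while DDIT3 was at -0.59. GSTA1 differed by 1.81, CYP1A1 by 1.67 and CYP1A2 by 1.29. The others were UNC5A at 1.79, CDC42EP5 at 1.64, CLDN2 at 1.17, PHLDA1 at 1.13, ITGA2 at 0.92, EGFR at 0.78, MUC1 at 0.68, PTPN14 at 0.62 and ALCAM at 0.52.

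Negative differences included CST4 at -2.26, with CST2 at -0.83, HSD3B1 at -1.47 and UGT1A1 at -1.03, all of which rose more on the arrays labelled MKN45. Among genes that fell more in AGS, GRHL3 was at -1.92, KIF26B at -1.26, UNC5CL at -1.22, PAGE4 at -1.12, CDKN1C at -0.89, IGFL2 at -0.87, ADI1 at -0.78, LIPG at -0.77, TMEM50B at -0.76, TENM3 at -0.71, ALDH3A1 at -0.71 and ID3 at -0.60. Chaperones and proteasome genes were HSPA8 at -0.98, DNAJA1 at -0.64, PSMA2 at -0.86 and PSME3 at -0.77. CCN2 was at -1.19 and ANKRD1 at -1.11, both targets of YAP1. Lipid genes were FASN at -1.07, IDI1 at -0.84 and NSDHL at -0.61, and growth genes PNO1 at -0.73, KIF20A at -0.71 and TYMS at -0.62. TP53INP1 was at -0.98, TP53I3 at -0.65 and SLC30A1 at -0.70.

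In the value table the same test passed for 11 of the 16 genes with the largest rises and falls. CDH17 was at -0.91, SLC12A2 and LAMC1 at -0.77, FAT1 at -0.67, DSG2 at -0.57, GLG1 at -0.49 and CPD at -0.48. GDF15 was at 1.04, PIM1 at 0.83, HMOX1 at 0.66 and RNVU1-18 at 0.27.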

How the results depend on the processing

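Of the 135 genes named, 124 were called in the signals. Over 12 alternative settings of the signals none changed direction, 5 (CCN2, CDK2AP2, CPD, GPKOW, SDHA) lost the call in 13 pairs of gene and setting, and 6 gained one in 10. CPD was at 0.32 without AGS DMSO replicate 3 (adjusted p = 0.059, limma). Of the same genes, 75 were called in the value table, and over 7 settings 13 genes lost the call in 44 pairs and 9 gained one in 14.

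Rises numbered 3349 and falls 1525 with a median shift, against 2496 and 2785, and 1373 and 1282 with the value table in place of the signals. In that exchange FAT1 was at -2.17, IGF2R and CDH17 at -1.64, ALCAM at -1.55, ITGB1 at -1.49 and ITGAV at -1.36, the opposite sign to the signals; the cause was not tested. At an unadjusted p under 0.001, the methods' t-test gave 727 rises and 689 falls, the methods' random variance test 1456 and 1532, and limma 1441 and 1512; after Benjamini-Hochberg at 0.05 the t-test gave 1991 and 2254. The value table up to the break, with 4492 genes, gave 625 rises and 635 falls, fewer genes being tested.

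With 1 array left out, rises ranged from 2096 to 2350 and falls from 2373 to 2665 for the signals, and from 936 to 1452 and from 1078 to 1339 for the value table. The interaction count was 198 higher and 230 lower in AGS with a median shift, and with 1 array left out 329 to 511 higher and 332 to 584 lower. It was 366 lower without AGS DMSO replicate 1, 329 higher and 364 lower without AGS VP replicate 1, 344 and 332 without AGS VP replicate 2, and 350 lower without VP replicate 1 of the arrays labelled MKN45. With the value table, an alternative chosen after seeing the data, it was 487 higher and 645 lower.

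VP and DMSO arrays shared only a replicate number, and same-numbered arrays did not deviate together (r = -0.10, 0.21 and -0.01). The replicate block gave 2463 rises and 2791 falls for the signals, 1380 and 1287 for the value table, and an interaction of 502 higher and 468 lower. Changes in AGS from or to background are bounds, and 106 genes tested were above background on no AGS array.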
